A study of Mus musculus with 8 samples.

Results

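FoxO factors and genes linked to growth-factor withdrawal were followed through a temperature and serum shift in SN4741 cells. The 10 genes were taken from a list set by gene function, as genes expected to rise with low serum, out of 31053 genes in the deposited count matrices. The rule held no measured value, but the list was chosen with earlier results of these data known. They were the forkhead factors Foxo1, Foxo3 and Foxo4, the pathway brakes Pik3ip1 and Sesn3, the regulators Ccng2, Bcl6, Cited2 and Klf15, and the metabolic gene Txnip. All 10 had UMIs in these cells and all 10 passed the filter on low counts in the comparison of library sums.

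SN4741 is a mouse embryonic substantia nigra line, labelled as wild-type neural precursor cells, in which a temperature-sensitive SV40 large T antigen is driven by the tyrosine hydroxylase promoter. The line was described as clonal, so all libraries come from 1 line. Karyotyping in the study, however, found it polyploid and unstable, with chromosome complements that differed from cell to cell. Gene copy number was not examined here. In 4 single-cell libraries the cells were kept at the permissive temperature (37°C) in medium with 10% serum, and in 4 others they were moved, 24 hours after passage, to the non-permissive temperature (39°C) in 0.5% serum for 48 hours. Temperature, serum and loss of T antigen activity changed together and cannot be told apart. The labels do not say whether replicates were separate cultures, so the p-values apply to these libraries and not to further cultures. After filtering, 8550 cells at 37°C and 9801 at 39°C remained, with 1653 to 2675 and 985 to 3494 cells per library. Summed UMIs per library ran from 26238596 to 29633818 at 37°C and from 17166686 to 28096213 at 39°C. Levels are given in CPM (UMIs of a gene scaled to a fixed library total). Replicate 1 at 39°C stood apart by its 985 cells and its median of 16665 UMIs per cell, against 6676 to 9886 in the other 39°C libraries. No pair of libraries shared more than 5 cell barcodes. Of the precursor markers, Nes, Sox2, Vim and Notch1 were present, whereas Hes5 had 0 UMIs and Pax6, Msi1 and Sox1 stayed under 1 CPM. The summed precursor markers were 5884 to 6214 CPM at 37°C and 5657 to 6268 CPM at 39°C, most of it Vim (5145 to 5445 and 5003 to 5617 CPM). Under that sum, Nes ran from 430 to 538 CPM at 37°C and from 105 to 117 CPM at 39°C, while Notch1 (201 to 245 and 465 to 484 CPM) and Sox2 (52.0 to 57.2 and 72.6 to 80.7 CPM) were higher at 39°C with no overlap. The 8 mesenchymal markers summed to 1811 to 1883 CPM and 908 to 941 CPM, mostly Col1a1 (980 to 1062 and 570 to 594 CPM) and Col1a2 (660 to 677 and 178 to 190 CPM). Twist1 ran the other way (58.3 to 63.9 and 82.1 to 88.4 CPM), and Pdgfrb was 74.1 to 84.3 and 71.4 to 73.2 CPM. The 6 neuronal markers summed to 165 to 193 CPM and 79.3 to 97.7 CPM. The part of these shifts in the results below was not tested.

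FoxO proteins are transcription factors that insulin and growth factors hold in check. Growth factor receptors activate PI3K and AKT, AKT phosphorylates FoxO, and 14-3-3 proteins then keep it in the cytoplasm. When growth factors are withdrawn, FoxO returns to the nucleus and switches on genes of cell cycle exit, stress resistance, autophagy and restrained metabolism. This control acts on the protein and its location, which transcript counts do not measure.

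In the sums of all cells, 8 of the 10 genes were higher at 39°C, Cited2 was lower, and Klf15 did not pass (adjusted p under 0.05 in edgeR's quasi-likelihood test, by Benjamini-Hochberg over 15810 genes). Shifts were widespread in this comparison: 31.5% of all tested genes passed as higher and 30.5% as lower. The 4 libraries of each temperature did not overlap for the same 8 higher genes and for Cited2, beside 28.7% of all genes higher and 28.0% lower without overlap. The median log2 fold change was 0.51 over the 10 genes and 0.02 over all genes tested. The differences were of moderate size. None of the 10 reached an adjusted p under 0.01 together with a log2 fold change over 1.5 in size, which 2.21% of all genes did upward and 3.62% downward. In a library sum, a lower level can stem from fewer cells with the transcript or from less of it per cell, and the sum alone cannot tell these apart. Shares of cells with a UMI at equal depth are given below.

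**Figure D1:**
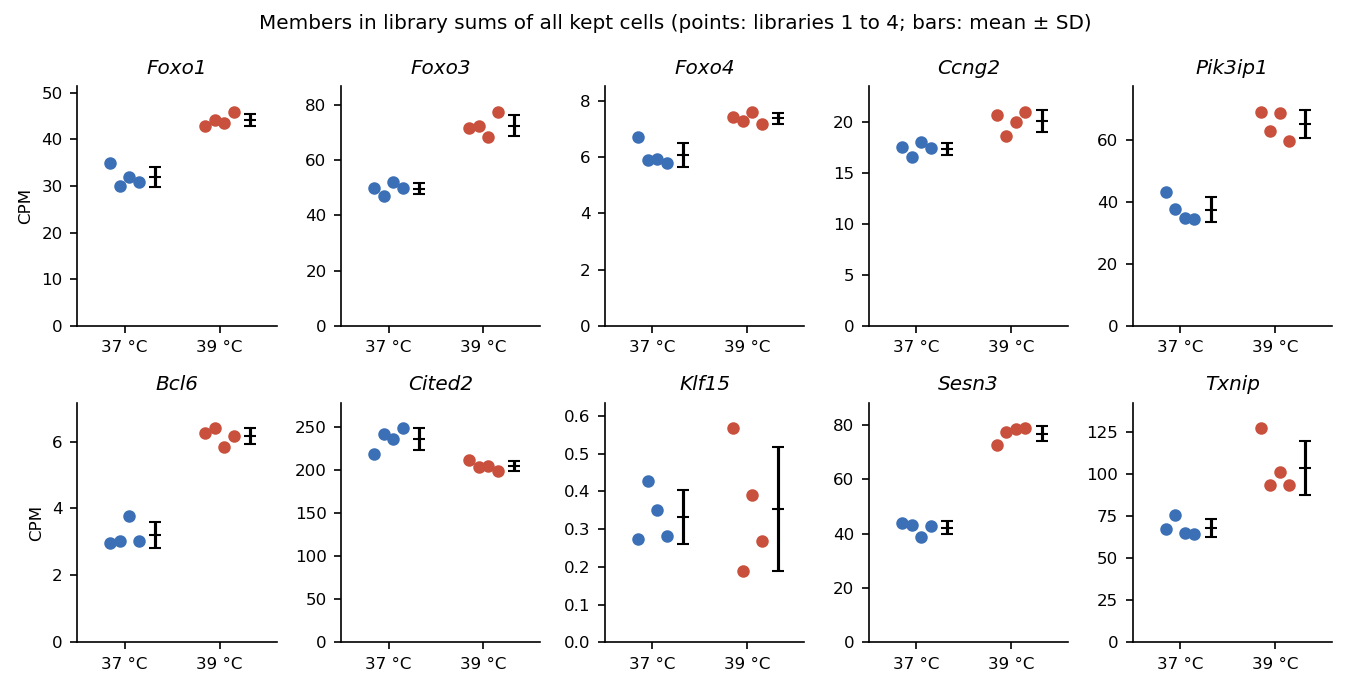
Level of each of the 10 genes in each library, in CPM of the summed UMIs of all kept cells (vertical axes start at 0), for 4 libraries at 37°C (blue) and 4 at 39°C (red), with the mean and SD beside the points. The 9 panels other than Klf15 show no overlap between temperatures, and Cited2 alone of those is lower at 39°C.

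All 3 FoxO factors rose. Foxo3 (chr10:42181841-42276755, minus strand, GRCm38), the member best known from longevity and quiescence, measured 50.05, 47.0, 52.0 and 49.8 CPM in the 37°C libraries and 71.7, 72.5, 68.3 and 77.5 CPM in the 39°C libraries. Every 39°C library lay above every 37°C library, and the log2 fold change was 0.54 ± 0.05 (SE, adjusted p = 1.08e-08). Foxo1 (chr3:52268336-52353221, plus strand), which relays insulin signals in many tissues, measured 34.9, 30.0, 32 and 30.9 CPM at 37°C and 43.0, 44.1, 43.5 and 45.9 CPM at 39°C. This was a log2 fold change of 0.47 ± 0.05 (SE, adjusted p = 1.84e-07). Foxo4, the X-linked member (chrX:101254528-101260873, plus strand), was less abundant in UMIs and changed less: 6.72, 5.89, 5.92 and 5.79 CPM against 7.43, 7.27, 7.61 and 7.17 CPM, with a log2 fold change of 0.28 ± 0.08 (SE, adjusted p = 0.00552). Its 37°C replicate 1 sat closest to the 39°C range.

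The 2 brakes on the growth-factor pathway showed larger differences. Pik3ip1 (chr11:3330401-3342971, plus strand) encodes a membrane protein that binds PI3K and dampens its activity. It measured 43.0, 37.6, 34.6 and 34.4 CPM at 37°C and 69.0, 62.8, 68.5 and 59.6 CPM at 39°C, a log2 fold change of 0.79 ± 0.07 (SE, adjusted p = 3.52e-09). Sesn3 (chr9:14275067-14333101, plus strand) encodes a sestrin, a stress protein that restrains mTORC1. It measured 44.0, 43.0, 38.6 and 42.9 CPM against 72.7, 77.2, 78.5 and 78.7 CPM, a log2 fold change of 0.87 ± 0.05 (SE, adjusted p = 1.42e-11). The lowest 39°C library of each gene exceeded the highest 37°C library by a wide margin relative to the spread within a temperature.

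The cell cycle and transcription regulators did not move as one. Ccng2 (chr5:93267257-93276231, plus strand) encodes cyclin G2, an atypical cyclin known from cells leaving the cycle, and its levels were 17.5, 16.6, 18 and 17.5 CPM at 37°C and 20.7, 18.6, 20.04 and 21.0 CPM at 39°C. The groups did not overlap, but the log2 fold change was small (0.21 ± 0.06, SE, adjusted p = 0.00364). Bcl6 (chr16:23965052-23988852, minus strand), a transcriptional repressor, had few UMIs (963 over all libraries) and the largest fold of the 10 genes: 2.98, 3.02, 3.79 and 3.02 CPM against 6.24, 6.40, 5.84 and 6.17 CPM, a log2 fold change of 0.94 ± 0.10 (SE, adjusted p = 1.00e-07). Of all tested genes, 91.0% had a lower log2 fold change than Bcl6. Cited2 went the other way. The gene (chr10:17723218-17725674, plus strand) encodes a partner of CBP and p300 that limits HIF1 activity, and it measured 218, 241, 235 and 248 CPM at 37°C and 212, 203, 205 and 199 CPM at 39°C. Its log2 fold change was −0.21 ± 0.05 (SE, adjusted p = 0.00125), and 37°C replicate 1 lay near the 39°C range. Klf15 (chr6:90462576-90475238, plus strand), a Krüppel-like factor of the fasting response, was near the detection limit, with 70 UMIs in all 8 libraries and 5 to 11 per library. Its log2 fold change of 0.03 ± 0.36 (SE, adjusted p = 0.952) leaves a difference not detectable at this depth.

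Txnip (chr3:96557957-96561883, plus strand) encodes a protein that binds thioredoxin and reduces glucose uptake, and AKT signalling and glucose supply are both known to act on it. It measured 67.3, 76.0, 64.9 and 64.4 CPM at 37°C and 127.5, 93.5, 101 and 93.8 CPM at 39°C, a log2 fold change of 0.61 ± 0.08 (SE, adjusted p = 1.80e-06). Replicate 1 at 39°C, the library with the fewest cells, was the highest. Without it the log2 fold change was 0.49 (adjusted p = 7.83e-08). The counts of 8 genes higher and 1 lower were the same without that library.

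The start regions of Txnip and Ccng2 are shown because they were the only searched promoters of these genes to hold one of the motifs. Foxo4 had no promoter in the reference used and was not searched. A FoxO core motif (GTAAACA), an insulin response motif (CAAAACA) and a pair of E-box ends as in carbohydrate response elements (CACG, any 7 bases, CACG) were sought on both strands from 250 bases before to 50 bases after each RefSeq gene start (GRCm38.p6), where 9 of the 10 genes matched, with 10 promoters. Each motif was found in 1 of the 10 promoters, and in 3.65%, 6.28% and 0.615%, respectively, of the 32851 promoters searched. The 250 bases before the start are printed. In these sequences, both on the plus strand and read 5′ to 3′ up to the base before the start, capitals mark the motifs.
Txnip, chr3:96557707-96557956: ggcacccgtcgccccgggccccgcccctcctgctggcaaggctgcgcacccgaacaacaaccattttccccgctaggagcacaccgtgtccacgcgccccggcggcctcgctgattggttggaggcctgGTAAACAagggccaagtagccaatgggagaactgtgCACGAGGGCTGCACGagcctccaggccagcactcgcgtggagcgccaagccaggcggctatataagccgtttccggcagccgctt
Ccng2, chr5:93267323-93267572: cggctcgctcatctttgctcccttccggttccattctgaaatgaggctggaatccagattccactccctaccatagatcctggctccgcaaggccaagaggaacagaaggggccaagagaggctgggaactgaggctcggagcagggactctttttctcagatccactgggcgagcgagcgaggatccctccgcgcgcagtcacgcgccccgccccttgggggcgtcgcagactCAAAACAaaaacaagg
In Txnip the FoxO core motif ran from −121 to −115 and the E-box pair from −85 to −71. In Ccng2 the insulin response motif ran from −16 to −10, with positions counted back from the RefSeq start. The Ccng2 range given earlier (chr5:93267257-93276231) comes from the GENCODE annotation and begins before that start. The printed Ccng2 bases therefore lie inside that range. None of the motifs overlapped another. A match is a description of the letters, and binding was not measured.

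The 2 temperatures differed strongly in the cell cycle. By scores from S and G2M gene lists that held none of the 10 genes, 24.1% ± 3.41 of cells at 37°C and 84.3% ± 1.22 at 39°C were assigned to G1 (SD, n = 4). S cells made up 40.5% and 11.3%, and G2M cells 35.5% and 4.43%. The comparison was therefore repeated within each phase. In G1 cells, 6 genes were higher at 39°C (24.8% of 14712 tested genes) and Cited2 was lower (22.4% of tested genes). Groups did not overlap for 5 of the higher genes and for Cited2, beside 23.7% and 20.3% of all genes. The median log2 fold change of the 10 genes was 0.30 in G1 cells, against 0.04 over all genes.

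Within G1, Sesn3 had the largest of the called differences, with 54.9, 55.0, 50.2 and 56.1 CPM at 37°C and 78.5, 85.1, 86.2 and 86.6 CPM at 39°C (log2 fold change 0.64 ± 0.06, SE, adjusted p = 3.33e-09). Ccng2 in G1 measured 13.8, 14.3, 14.1 and 14.4 CPM against 21.9, 19.1, 20.4 and 21.7 CPM (log2 fold change 0.55 ± 0.08, SE, adjusted p = 8.48e-06). Whether this differs in size from the 0.21 in all cells was not tested. Bcl6 (0.61, adjusted p = 0.00307), Foxo3 (0.40, adjusted p = 5.51e-06), Txnip (0.35, adjusted p = 0.00303) and Foxo1 (0.24, adjusted p = 0.00335) also rose in G1 cells. Of these only Txnip overlapped, since its 37°C replicate 2 reached 100.2 CPM. Cited2 in G1 measured 232, 249, 228 and 233 CPM at 37°C and 199, 189, 189 and 180 CPM at 39°C, with no overlap (log2 fold change −0.32 ± 0.05, SE, adjusted p = 2.05e-05).

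Pik3ip1, among the largest differences in all cells, did not pass in G1. It measured 68.3, 70.1, 56.4 and 58.9 CPM in G1 cells at 37°C and 75.1, 67.4, 74.6 and 65.3 CPM at 39°C, and the groups overlapped. The log2 fold change was 0.15 ± 0.07 (SE, adjusted p = 0.0776), and over left-out libraries the fold change ran from 0.099 (adjusted p = 0.285, without 37°C replicate 3) to 0.20. The gene passed without 37°C replicate 2 (adjusted p = 0.0344), without 39°C replicate 4 (adjusted p = 0.0377), with no filter on low counts (adjusted p = 0.0226) and with updated phase lists (adjusted p = 0.0282). Foxo4 in G1 was 7.06 ± 1.53 CPM and, at 39°C, 7.71 ± 0.44 CPM (n = 4, SD, adjusted p = 0.528), and Klf15 rested on 40 UMIs.

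**Figure D2:**
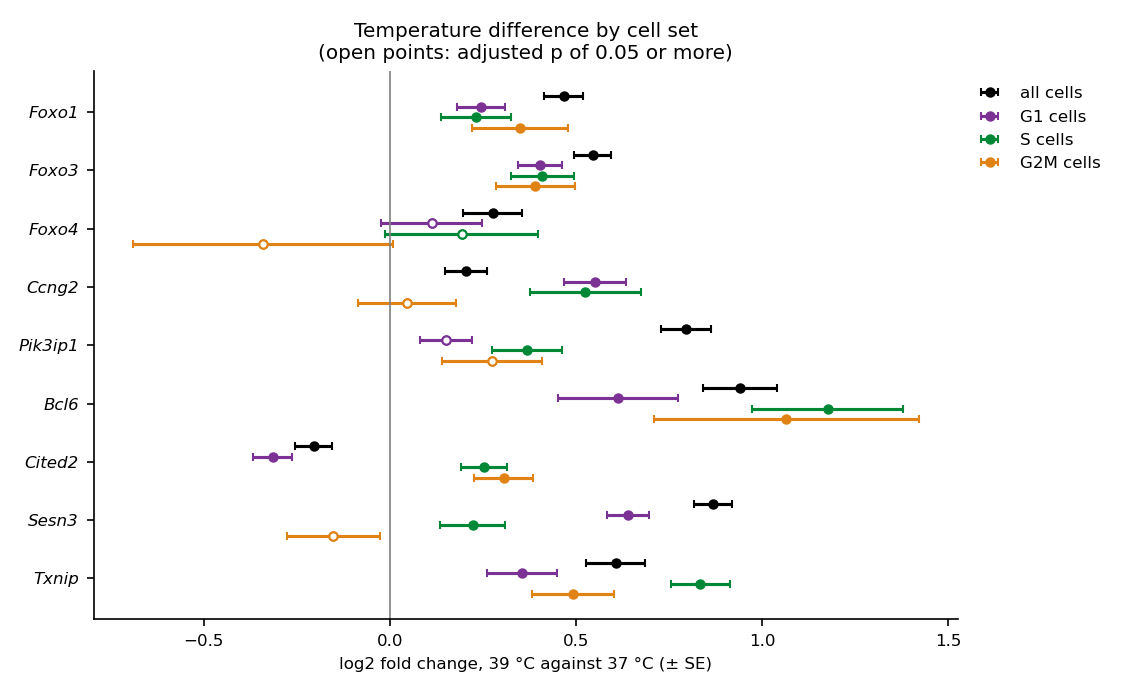
Log2 fold change of 39°C against 37°C, with its standard error, for 9 genes (Klf15, with 70 UMIs, is left out) in all cells and in cells assigned to G1, S or G2M, with open points for adjusted p of 0.05 or more. Cited2 lies below 0 in all cells and in G1 and above 0 in S and G2M. Pik3ip1 drops from 0.79 in all cells to 0.15 in G1, 0.37 in S and 0.27 in G2M.

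Cells assigned to S or G2M at 39°C were few, 115 to 423 and 29 to 187 per library. In S cells, 8 genes passed as higher at 39°C (20.1% of 13740 tested genes) and 0 as lower (23.4% of tested genes). In G2M cells, 5 passed as higher (13.2% of 13802 tested genes) and 0 as lower (16.5% of tested genes). Cited2 was among the higher genes in both. It measured 244, 269, 279 and 279 CPM in S cells at 37°C and 310, 308, 336 and 323 CPM at 39°C (log2 fold change 0.25 ± 0.06, SE, adjusted p = 0.00113), with no overlap. In G2M cells its mean rose from 210 ± 14.7 CPM to 262 ± 16.6 CPM (n = 4 each, SD), again with no overlap (log2 fold change 0.31 ± 0.08, SE, adjusted p = 0.00316). The sign of the Cited2 difference thus depended on the cells compared. Txnip had its largest difference in S cells, 58.9 ± 4.46 CPM against 106 ± 15.7 CPM (n = 4 each, SD), with a fold change of 0.83 ± 0.08 on the log2 scale (SE, adjusted p = 5.16e-10). Bcl6 was higher in S and G2M cells as well, by 1.18 and 1.06 on the log2 scale (adjusted p = 1.74e-05 and 0.0201), although on 233 and 138 UMIs. Ccng2 in G2M cells measured 29.3, 27.7, 29.1 and 28.3 CPM at 37°C and 28.9, 28.8, 30.4 and 29.4 CPM at 39°C, and the log2 fold change was 0.05 ± 0.13 (SE, adjusted p = 0.841). Sesn3 in G2M cells was 41.7 ± 2.33 CPM and, at 39°C, 36.3 ± 6.91 CPM (n = 4, SD, adjusted p = 0.399). Pik3ip1 passed in S cells, with 29.9 ± 3.21 CPM at 37°C, 38.6 ± 1.30 CPM at 39°C (SD, n = 4) and no overlap. Its log2 fold change there was 0.37 ± 0.09 (SE, adjusted p = 0.00172), and in G2M cells the gene did not pass (0.27, adjusted p = 0.124).

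Within each library, G1 cells were next compared with the S and G2M cells of the same library, which holds the culture constant. These fits, and the later one comparing the G1 difference between temperatures, share variance between genes. Their very small p-values therefore do not rest on a gene's own spread between libraries alone. At 37°C, 5 of the genes were higher in G1 (19.7% of 14844 tested genes) and Ccng2 was lower (24.1% of tested genes). At 39°C, 4 were higher in G1 (21.4% of 14608 tested genes) and Cited2 was lower (19.0% of tested genes). Pik3ip1 had the largest called G1 difference at 37°C. Its G1 cells measured 67.1, 69.3, 55.7 and 57.8 CPM and the S and G2M cells of the same libraries 35.1, 29.0, 29.3 and 28.5 CPM (log2 fold change 1.03 ± 0.05, SE, adjusted p = 5.93e-83). At 39°C the pairs were 75.7 and 39.8, 68.2 and 41.2, 75.6 and 38.9, and 66.2 and 37.2 CPM (log2 fold change 0.86 ± 0.06, SE, adjusted p = 5.30e-41). All 8 libraries held more Pik3ip1 in G1 cells, and the difference between the temperatures was not past the threshold (−0.16 ± 0.09, SE, adjusted p = 0.212). Foxo1 and Foxo3 were also higher in G1 cells in 4 of 4 libraries at each temperature, with log2 fold changes of 0.33 and 0.22 at 37°C and of 0.31 and 0.27 at 39°C.

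For 4 genes the G1 difference itself differed between temperatures (edgeR interaction term, adjusted p under 0.05). The signed change from 37°C to 39°C was upward for Ccng2 and Sesn3 (11.1% of 14745 tested genes) and downward for Cited2 and Txnip (5.13% of tested genes). In size, the difference grew for Sesn3 and Cited2 and shrank for Txnip, and for Ccng2 the estimate changed sign. The S and G2M cells set against G1 were mixed differently at each temperature. They made up 40.5% and 35.5% of cells at 37°C, and 11.3% and 4.43% at 39°C. Ccng2 was higher in G2M than in S cells at both temperatures, and Cited2 was higher in S than in G2M cells. The part of this mix in the 4 changes was not tested. Sesn3 was higher in G1 by 0.44 at 37°C and by 1.01 at 39°C on the log2 scale, and the difference between these was 0.57 ± 0.08 (SE, adjusted p = 9.79e-11). At 39°C its G1 cells measured 79.1, 86.1, 87.4 and 87.8 CPM and its S and G2M cells 45.9, 38.1, 40.6 and 46.8 CPM. Ccng2 was lower in G1 cells at 37°C, with 14 ± 0.29 against 18.4 ± 0.92 CPM (SD, n = 4), and at 39°C it was 21.0 ± 1.30 against 18 ± 1.71 CPM (adjusted p = 0.0855). The change between temperatures was 0.61 ± 0.13 (SE, adjusted p = 4.35e-05). Cited2 showed no called difference at 37°C, 232 ± 9.56 against 236 ± 14.5 CPM (SD, n = 4, adjusted p = 0.530). At 39°C its G1 cells held 201, 192, 191 and 183 CPM and the S and G2M cells of the same libraries 311, 297, 309 and 308 CPM (log2 fold change −0.68 ± 0.03, SE, adjusted p = 1.54e-95). The change was −0.65 ± 0.04 (SE, adjusted p = 4.37e-49), with lower values in G1 in 4 of 4 libraries at 39°C and in 2 of 4 at 37°C. Txnip was higher in G1 at 37°C by 0.31 on the log2 scale, and at 39°C the fold change was −0.02 (adjusted p = 0.827), a change of −0.32 ± 0.06 (SE, adjusted p = 1.20e-05).

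**Figure D3:**
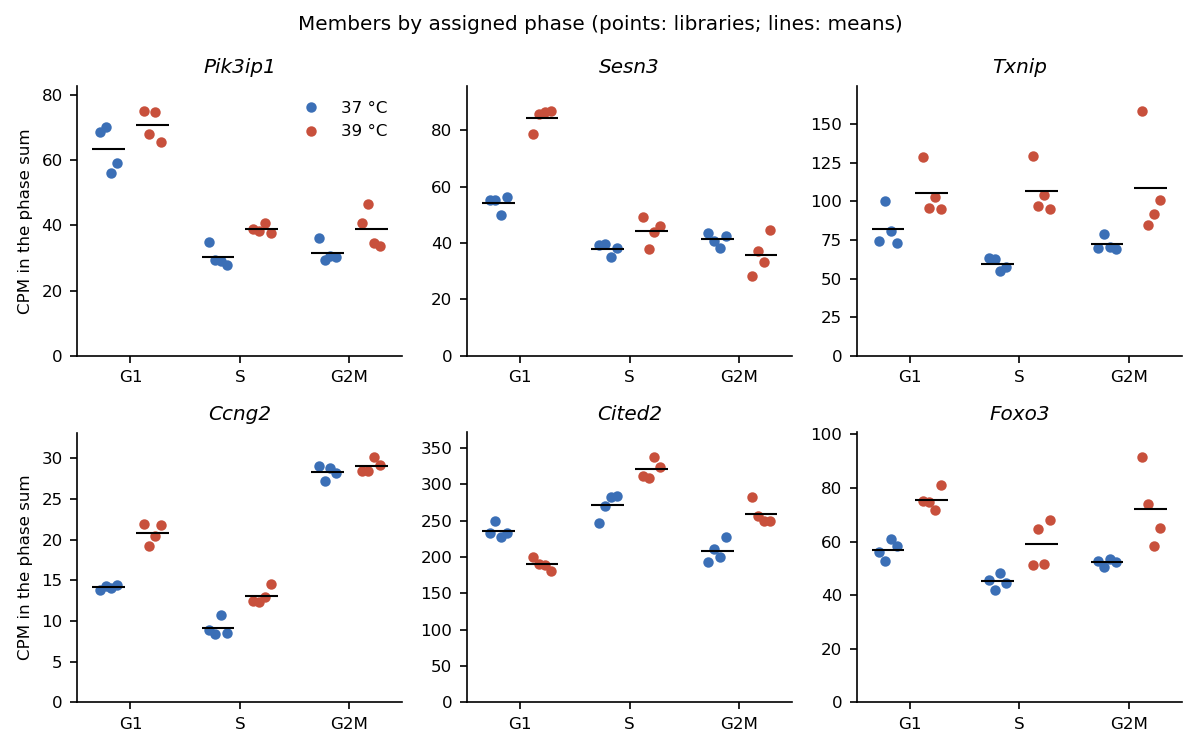
Level of 6 genes in CPM (vertical axes start at 0) in the summed cells of each library assigned to G1, S or G2M at 37°C (blue) and 39°C (red), all 24 sums scaled together, with lines at the means. Pik3ip1 and Sesn3 are highest in G1 (Sesn3 means 54.1 and 84.4 CPM), Ccng2 is highest in G2M (28.3 and 29.0 CPM), and Cited2 at 39°C is lowest in G1 (190 CPM) and highest in S (321 CPM).

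Ordered by phase, Ccng2 ran highest in G2M at both temperatures. Its means over the 24 sums of library and phase were 9.16 CPM in S, 14.2 CPM in G1 and 28.3 CPM in G2M at 37°C, and 13.1, 20.9 and 29.0 CPM at 39°C. The ranges of the 3 phases did not overlap at either temperature. For the 3 most abundant genes, the genes with the most similar level over the 24 sums were sought among 8405 others with at least 10 CPM. Cited2 was most like Mfsd10 (Pearson r = 0.866), Timeless (r = 0.863) and Cdca7 (r = 0.856). Txnip was most like Tmem5 (r = 0.935), Abcb1b (r = 0.922) and AC149090.1 (r = 0.916), and Foxo3 was most like Igsf9b (r = 0.944), Ddit3 (r = 0.935) and Rnf169 (r = 0.933). The 24 sums share libraries, depth and the temperature contrast, so these values describe likeness and carry no test.

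The share of cells with at least 1 UMI was compared at equal depth. Every cell was cut back to 5000 randomly kept UMIs, which left out the shallower cells (668 at 37°C, 1668 at 39°C). Shares did not overlap between temperatures for 9 of the 10 genes, each with an exact two-sided permutation p of 0.0286, the smallest that 4 against 4 libraries allow. At 2000 UMIs per cell, Foxo1 (5.98% to 7.15% and 6.68% to 9.52%) and Foxo4 (1.24% to 1.5% and 1.36% to 1.67%) overlapped (exact permutation p = 0.143 each). Sesn3 was detected in 17.0% to 18.5% of cells per library at 37°C and in 27% to 29.9% at 39°C. Txnip went from 25.1% to 30.8% at 37°C to 33.8% to 43.3% at 39°C, and Pik3ip1 from 14% to 19.3% to 23.1% to 27.6%. Cited2 was the most widely detected gene, in 57.5% to 62.4% of cells at 37°C and 49.6% to 53.4% at 39°C. Bcl6 was found in 1.33% to 2.29% and 2.72% to 4.00% of cells. Klf15 was found in 0.0588% to 0.250% and 0.0839% to 0.211% of cells (exact permutation p = 0.800). No cell type that should lack these genes was present. As a floor, the immune genes Ptprc, Aif1, Csf1r and Cx3cr1 were found in 0% to 0.605% of thinned cells per library, a range that held all Klf15 shares. Its upper end came from Cx3cr1 (0.183% to 0.605%), while Aif1 reached 0.316% and Ptprc and Csf1r 0.211%. The Klf15 shares can therefore not be told from background. Unthinned, with median depths of 9839 to 15413 UMIs at 37°C and 6676 to 16665 UMIs at 39°C, shares overlapped for all 10 genes. Means were then 38.3% and 45.9% for Sesn3, 48.6% and 55.9% for Txnip, 33.6% and 45% for Pik3ip1, and 80.9% and 67.2% for Cited2.

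**Figure D4:**
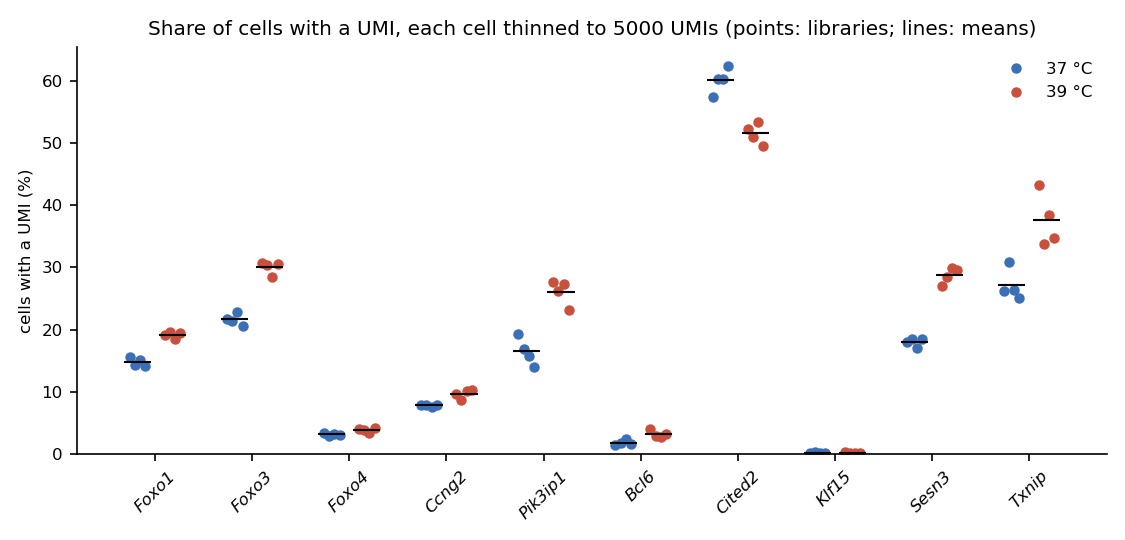
Share of cells (percent, axis from 0) in each library with at least 1 UMI of each of the 10 genes after thinning every cell to 5000 UMIs, at 37°C (blue) and 39°C (red), with lines at the means. Shares are higher at 39°C for 8 genes, with Sesn3 moving from a mean of 18% to 28.8%, lower for Cited2 (60.2% to 51.6%), and close to 0 for Klf15.

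At this depth most cells showed only a few of the genes. At least 3 of the 10 were detected in 20.5% to 22.6% of cells per library at 37°C and in 32.5% to 35.7% at 39°C, and at least 5 in 1.28% and 2.88% of cells on average. Within libraries the 45 pairs of genes had median correlations across cells of −0.08 to 0.07. With so few UMIs per gene and cell, values this weak are no finding.

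Wider lists of pathway genes, set by function but also chosen with earlier results of these data known, gave mixed pictures. Of 20 genes of the PI3K-AKT arm, 12 were higher at 39°C and 4 lower in all cells, with a median log2 fold change of 0.27, against 31.5% and 30.5% of all genes. In G1 cells 11 were higher and 2 lower, against 24.8% and 22.4% of all genes. Irs2, an adaptor of the insulin receptor, rose from 71.9 ± 3.90 to 136 ± 2.56 CPM (SD, n = 4, log2 fold change 0.92, adjusted p = 2.57e-12). Tsc1, which holds back mTORC1, rose by 0.81 (adjusted p = 2.11e-11), and Pik3ca, the catalytic subunit of PI3K, rose by 0.65 (adjusted p = 1.65e-10) on the log2 scale. This list thus held both activators and brakes of the pathway among its higher genes.

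Among 18 FoxO cofactors and modifiers, 4 were higher and 9 lower, beside 31.5% and 30.5% of all genes, with a median log2 fold change of −0.12. The lower genes included Skp2, a ubiquitin ligase subunit that targets Foxo1 and p27, which fell from 31.1 ± 1.5 to 13.3 ± 1.18 CPM (SD, n = 4, log2 fold change −1.21, adjusted p = 2.64e-12). Ywhah, a 14-3-3 protein, and Xpo1, the nuclear export receptor, fell by 0.84 and 0.83 on the log2 scale (adjusted p = 6.40e-12 and 3.34e-11). In G1 cells 5 were higher and 6 lower (24.8% and 22.4% of all genes), Skp2 and Ywhah still fell (−0.54, adjusted p = 5.70e-05, and −0.28, adjusted p = 9.06e-05), and Xpo1 did not pass (−0.14, adjusted p = 0.111).

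Of 20 other FoxO target genes, 11 were higher and 5 lower, where all genes gave 31.5% and 30.5%, with a median log2 fold change of 0.16. Fbxo32, the muscle atrophy ubiquitin ligase atrogin-1, rose from 12 ± 1.55 to 40.8 ± 2.07 CPM (SD, n = 4, log2 fold change 1.76, adjusted p = 8.81e-14) and by 0.97 in G1 cells (adjusted p = 3.41e-10). Trp53inp1, a stress and autophagy gene also driven by p53, rose by 1.01 (adjusted p = 1.55e-11). Cdkn2d, a CDK4 and CDK6 inhibitor, fell from 45.5 ± 3.11 to 16.2 ± 0.55 CPM (SD, n = 4, log2 fold change −1.48, adjusted p = 4.35e-14), and in G1 cells its fold change was 0.01 (adjusted p = 0.912). In G1 cells 18 of the list were tested, of which 10 were higher and 4 lower (24.8% and 22.4% of all genes).

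Of 11 thioredoxin and arrestin partners of Txnip, 5 were higher and 4 lower, beside 31.5% and 30.5% of all genes, with a median log2 fold change of 0.26. Its relatives Arrdc2 and Arrdc4, arrestin-domain proteins, rose by 1.39 and 0.86 (adjusted p = 5.51e-09 and 9.41e-09). Txn1, the thioredoxin that Txnip binds, fell from 952 ± 36.1 to 564 ± 65.7 CPM (SD, n = 4, log2 fold change −0.75, adjusted p = 1.46e-08). In G1 cells 10 were tested, 5 higher and 2 lower (24.8% and 22.4% of all genes), and all 3 named genes passed in the same direction (1.34, 0.44 and −0.48).

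Of 9 close relatives of the 10 genes, 7 were higher and 0 lower in all cells and in G1 cells, with medians of 0.62 and 0.41, where 31.5% and 24.8% of all genes were higher and 30.5% and 22.4% lower. Klf9 and Klf13, relatives of Klf15, rose by 0.73 and 0.72 (adjusted p = 3.48e-10 and 5.24e-11), and Sesn2, a stress-induced sestrin, by 0.68 (adjusted p = 1.01e-09). The fourth FoxO gene, Foxo6, rose from 7.76 ± 0.47 to 12 ± 0.59 CPM (n = 4, SD, log2 fold change 0.62, adjusted p = 2.69e-07), and it was named after its value was seen. Of 9 growth-arrest genes 7 were tested, with 2 higher, 4 lower (31.5% and 30.5% of all genes) and a median log2 fold change of −0.17. Gas1 rose by 0.62 (adjusted p = 2.75e-07). Gas7 went from 3.97 ± 0.56 to 2.12 ± 0.38 CPM and Cdkn1c, the CDK inhibitor p57, from 2.87 ± 0.32 to 1.74 ± 0.50 CPM (SD, n = 4, adjusted p = 1.36e-05 and 0.000509). In G1 cells 2 of the 7 were higher and 2 lower (24.8% and 22.4% of all genes), Cdkn1c among them (−0.71, adjusted p = 0.0346), and Gas7 did not pass (−0.52, adjusted p = 0.0568).

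**Figure D5:**
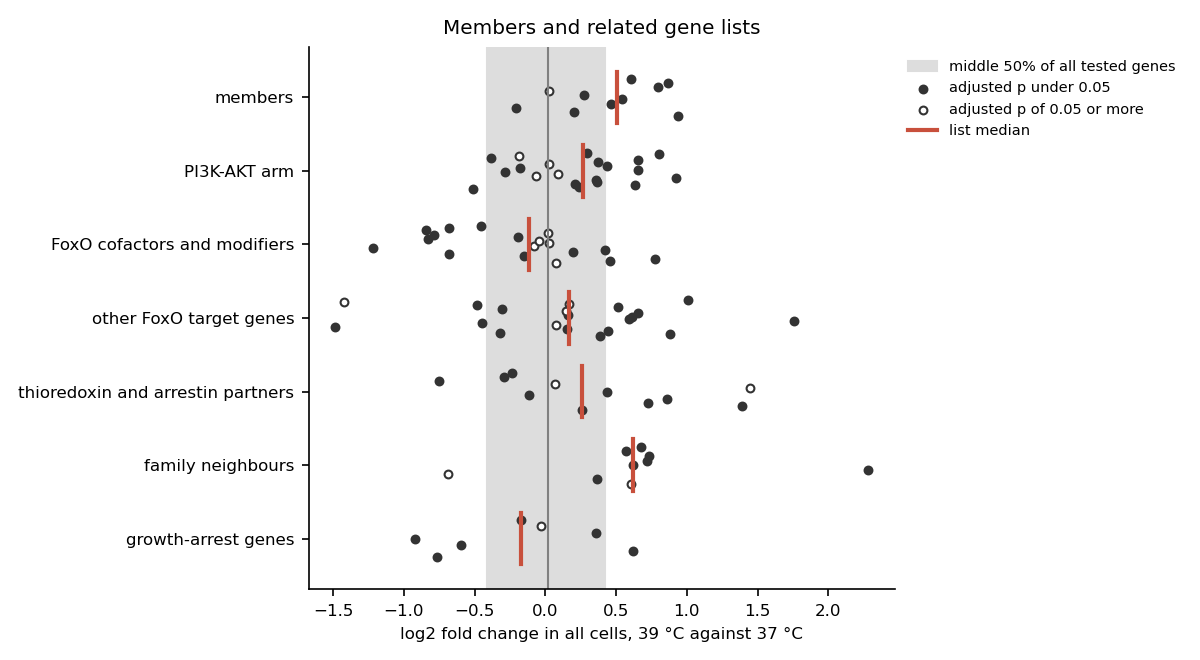
Log2 fold change of 39°C against 37°C in all cells for each tested gene of the 10 genes (top row, labelled members) and of 6 lists of related genes, with filled points for adjusted p under 0.05, a red line at each list's median, and grey for the middle 50% of all tested genes. The medians are highest for close relatives (0.62) and for the 10 genes (0.51), and below 0 for FoxO cofactors and modifiers (−0.12) and growth-arrest genes (−0.17).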

How the data were processed

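Single-cell libraries (Chromium Single Cell 3′ v3) of SN4741 cells were analysed from the UMI counts per gene and cell that the authors deposited, made per the labels with Cell Ranger 3.0.1 on mm10. Cells over 15% mitochondrial UMIs (334), and those with more than 6000 (440) or fewer than 200 detected genes (29) were removed, as in the study's methods, and 18351 of 19125 cells were kept. Doublets were limited only by the upper bound on genes. Phases were assigned with Seurat 5.3.0 (CellCycleScoring). Counts were summed per library, over all cells or by phase, genes averaging 1 or more counts per sum entered the tests, and edgeR 4.0.16 (quasi-likelihood test, TMM, R 4.3.3) was fitted across all genes with Benjamini-Hochberg adjustment. CPM values use TMM-scaled totals. G1 against S and G2M was fitted with library as a block. Summed depth per library was 17166686 to 29633818 UMIs, and low genes such as Klf15 are limited by it. Shares of cells were tested by an exact two-sided permutation test over the 70 assignments of the libraries. No 2 libraries of a group agreed within sampling noise (chi-square per degree of freedom of 2.85 to 21.4 over 12 pairs). Scripts were tested on simulated data.

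Groups and replicate numbers come from the titles. The 10 genes and the related lists were chosen with earlier results of these data known. Named beyond the 10 genes were, from each list, up to 3 genes that passed with the largest fold change in size and at least 1 CPM in the higher temperature, and the 3 genes most correlated, on log2(CPM + 1), with each of the 3 most abundant members. Alternatives were RLE, upper quartile and no scaling factors, other filters, DESeq2 1.42.0, other cell limits, thinning and each library left out in turn. T antigen transcripts were not analysed here.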

Additional observations from a re-analysis of the deposited data

Results flagged for a closer look

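In 60 groups of 4 libraries, 2 held a library far from the other 3 by Dixon's test, where chance gives about 1 group in 20. Foxo4 in all cells measured 6.72 CPM in 37°C replicate 1, against 5.79 to 5.92 CPM in the other 37°C libraries, and without it the log2 fold change was 0.31 in place of 0.28. Bcl6 in all cells measured 3.79 CPM in 37°C replicate 3, against 2.98 to 3.02 CPM in the others, and without it the log2 fold change was 1.02 in place of 0.94.

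The difference between G1 cells and the S and G2M cells of the same library differed between temperatures for 4 of the 10 genes (edgeR interaction term). On the log2 scale the signed difference changed from 37°C to 39°C by 0.61 for Ccng2, 0.57 for Sesn3, −0.65 for Cited2 and −0.32 for Txnip. For Ccng2 it was −0.40 at 37°C and 0.20 at 39°C, and the latter did not pass. The mix of S and G2M cells also differed between temperatures, and its part was not tested.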

How the results depend on the processing

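Among the alternatives run, the counts of genes that passed stayed within 1.5 times the reported ones 210 times and moved 6 times. Among single genes, 693 values kept their direction and side of the threshold, 15 passed only under an alternative, 24 no longer passed and 26 changed sign. All cells gave 8 higher and 1 lower under every scaling, filter, cell limit and left-out library tried, and under DESeq2. With S cells only, a cell set chosen after seeing the data, 0 genes were lower, and with G2M cells only, 5 were higher and 0 lower. Cited2 then had a log2 fold change of 0.25 in S and 0.31 in G2M, and in G2M Sesn3 had −0.15, Foxo4 −0.34 and Klf15 −0.073. Scaling by library totals gave 4 genes in place of 2 with a downward change of the G1 difference at 39°C, Bcl6 (−0.73) and Pik3ip1 (−0.28) being added. Bcl6 also passed there with RLE scaling (−0.66) and without 37°C replicate 4 (−0.78). In G1 against S and G2M at 37°C, Foxo4 (0.39) and Klf15 (1.69) passed without replicate 3 and Bcl6 (0.55) without replicate 4, and at 39°C Foxo4 (0.56) passed without replicate 4. Without thinning, 0 shares of cells passed in either direction. Thinned to 2000 UMIs, the shares of Foxo1 and Foxo4 no longer passed. The cause of these moves was not tested.

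Klf15 in all cells, on 70 UMIs, went to −0.011 with no cell filter, −0.046 with a 10% mitochondrial limit, −0.12 with a limit of 5000 genes, and −0.22 to 0.24 with a library left out. The Klf15 share of cells ranged from −0.0086 to 0.0552 percentage points over left-out libraries. Cited2 by phase at 37°C was 0.037 with library totals, 0.00926 with the updated lists and −0.052 to 0.012 with a library left out. Txnip by phase at 39°C ranged from −0.038 to 0.0075 with a library left out. In the phase difference between temperatures, library totals gave −0.059 for Foxo3 and −0.037 for Foxo4, and leaving out a library gave −0.0780 to 0.0406 for Foxo1 and −0.053 to 0.32 for Foxo4. None of these values passed.

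Same-numbered libraries did not deviate together (correlations of −0.121, −0.117, −0.0946 and 0.291), so the numbers were not taken to pair them. With replicate number as a block, 8 genes were higher and 1 lower in all cells, 6 and 1 in G1 cells, and in the related lists 41 and 25 in all cells and 40 and 16 in G1 cells. Scoring phases on genes found in 3 or more cells, added after seeing the data, changed no count by over 1.5 times. Depth limits Klf15, and Bcl6 and Foxo4 in G2M cells.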
